A study of Homo sapiens with 6 samples.

Results

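The plasminogen activators and the serpins that restrain them form a proteolytic switch at the cell surface. Urokinase (gene PLAU) and tissue-type plasminogen activator (gene PLAT) are serine proteases that cut plasminogen into plasmin, which dissolves fibrin and degrades matrix proteins. Urokinase acts on cells mainly while bound to its membrane-anchored receptor uPAR (gene PLAUR). Serpins are inhibitors that trap their protease in a covalent complex. SERPINE2 (protease nexin-1) is a secreted serpin that inhibits thrombin and both activators, and SERPINB2 (plasminogen activator inhibitor 2) is a mostly intracellular inhibitor of both activators. The urokinase system is known in glioma for its part in matrix breakdown and cell invasion.

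The genes were chosen by name, and each was to be represented by the probe set with the highest mean among those annotated with exactly 1 gene symbol. Of the 5 named genes, 4 were measured among the 18417 genes tested: PLAU, PLAUR, PLAT and SERPINE2, each with 1 probe set. SERPINB2 was not analysed here. The samples were U-87 MG cells, an established human glioma cell line with brain as the labelled tissue. Cells labelled P68 knockdown (3 arrays) were set against cells labelled P68 wild type (3 arrays). The treatment note names transfection with siP68, an siRNA against P68, or with NC, and does not say which samples received NC. P68 is the RNA helicase encoded by DDX5. All results thus come from 1 cell line after transfection, and separate cultures are not named for the replicates. The p-values therefore rest on the variation among these arrays alone, which could be technical.

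Values are log2 signals made by RMA, so a difference of 1 is a 2-fold change, and the signals of different probe sets are compared no further than their place above or below the median gene or the dimmest 40% of genes. Array medians lay between 4.32 and 4.37, and pairs of arrays correlated with r = 0.979 to 0.990 over 29096 probe sets. On DDX5, the targeted gene, every knockdown array was below every wild-type array, with a log2 difference of -0.49 ± 0.13 (SE, limma adjusted p = 0.902). Of 8 glioma markers, 3 (VIM, NES and GFAP) were brighter than the median gene, while CD44, CHI3L1, TNC, SOX2 and S100B were dimmer than it. Among markers of other cell types, 2 of 5 neuronal, 2 of 5 endothelial, 1 of 5 microglial and 1 of 4 oligodendrocyte genes were brighter than the median gene. The mean signal of each of these 5 marker lists overlapped between the groups.

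The stretches of 250 bases before the annotated start sites of PLAU, PLAUR and SERPINE2 are printed because these genes encode the protease, its receptor and its secreted inhibitor. They are from RefSeq (GRCh38.p14), read 5′ to 3′ on the gene's strand. The table holds 2 windows each for PLAU and SERPINE2 and 1 for PLAUR. For PLAU and SERPINE2 the window with more motif matches is printed, a choice made after the search. PLAU lies on the plus strand at chr10:73910882-73911131, PLAUR on the minus strand at chr19:43670170-43670419 and SERPINE2 on the minus strand at chr2:224031479-224031728. Capitals mark matches on either strand to the AP-1 site TGANTCA, the GC box GGGCGG, the CCAAT box CCAAT and the TATA box TATAAA.
PLAU: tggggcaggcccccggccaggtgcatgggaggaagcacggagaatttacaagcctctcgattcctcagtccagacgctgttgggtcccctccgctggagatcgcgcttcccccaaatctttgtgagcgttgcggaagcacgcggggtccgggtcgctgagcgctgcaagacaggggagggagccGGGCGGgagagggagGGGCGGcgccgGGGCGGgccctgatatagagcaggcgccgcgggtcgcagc
PLAUR: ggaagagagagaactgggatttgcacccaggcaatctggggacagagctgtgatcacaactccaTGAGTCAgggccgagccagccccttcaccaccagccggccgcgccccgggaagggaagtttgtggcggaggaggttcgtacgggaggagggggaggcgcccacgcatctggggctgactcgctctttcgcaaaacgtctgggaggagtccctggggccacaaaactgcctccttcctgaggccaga
SERPINE2: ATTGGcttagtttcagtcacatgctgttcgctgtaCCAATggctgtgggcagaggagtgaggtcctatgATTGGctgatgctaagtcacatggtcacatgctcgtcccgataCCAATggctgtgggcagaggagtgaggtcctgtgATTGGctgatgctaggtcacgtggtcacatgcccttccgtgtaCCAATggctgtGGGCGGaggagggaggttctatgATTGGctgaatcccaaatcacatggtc

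The PLAU window held 3 GC boxes, which begin 66, 51 and 40 bases before the start site. The PLAUR window held 1 AP-1 site, which begins 186 bases before the start site. The SERPINE2 window held 7 CCAAT boxes in alternating orientation and 1 GC box. The CCAAT boxes begin 250, 215, 181, 138, 104, 61 and 27 bases before the start site. They lie in a stretch of letters that repeats with small changes, so they are not independent matches. No motif match overlapped another, and none of the 3 windows held the TATA letters. Of all 35116 windows of this length, 42.6% held a GC box, 32.0% a CCAAT box, 10.7% a TATA box and 6.57% an AP-1 site. The other PLAU window held 1 CCAAT box, and the other SERPINE2 window held 2 GC boxes and no CCAAT box. Binding to these stretches was not measured, and a match is a description of letters.

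The first question is whether the proteases that start the cascade differed between cells labelled P68 knockdown and P68 wild type. Of the 4 measured genes urokinase had the largest difference, and its values were higher in the knockdown. PLAU gave 5.30, 5.35 and 5.21 on knockdown replicates 1, 2 and 3, against 4.93, 4.99 and 5.18 on wild-type replicates 1, 2 and 3. Every knockdown array was above every wild-type array, and the closest pair, knockdown replicate 3 and wild-type replicate 3, lay 0.03 apart. The log2 difference of 0.25 ± 0.11 (SE) puts the knockdown signal at 119% of wild type (95% confidence interval 101% to 140%).

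PLAU did not pass the threshold over all genes (limma adjusted p = 0.902, unadjusted p = 0.0382). With 1 array left out in turn the unadjusted limma p was lowest at 0.0219, when wild-type replicate 3 was omitted, and highest at 0.126, when wild-type replicate 1 was. Of all genes tested 0% had an adjusted p under 0.05, and 3.02% had an unadjusted p under 0.05 with higher values in the knockdown. Groups that do not overlap, with the knockdown higher, were found for 5.98% of all genes, and PLAU was 1 of the 4 measured members to show this. An exact permutation test (two-sided) gave p = 0.1 for PLAU, the smallest value that 3 arrays against 3 allow. Its absolute difference was larger than that of 92.4% of genes. Some markers of other cell types lay higher in the knockdown along with PLAU. All 4 measured oligodendrocyte markers lay above 0, with a median log2 difference of 0.06 and groups that overlapped. Of the 5 microglial markers 3 lay above 0 and 2 below, with a median of 0.05. The 5 neuronal markers had a median log2 difference of 0.18, 3 above 0 and 2 below, and 2 of them (STMN2 and SYT1) had groups that did not overlap. STMN2 gave 0.32 ± 0.11 (SE, limma adjusted p = 0.902). Of the 5 endothelial markers 4 lay above 0, with a median of 0.08, and CLDN5 gave 0.27 ± 0.10 (SE, limma adjusted p = 0.902) with groups that did not overlap. In the neuronal and the endothelial list 1 gene each had an unadjusted limma p under 0.05. In the microglial list P2RY12 also had groups that did not overlap, at 0.08. STMN2, SYT1 and P2RY12 lay within the dimmest 40% of genes, so their signals cannot be told from background here. The mean signal of the neuronal list ran from 4.52 to 4.69 on knockdown arrays and from 4.47 to 4.55 on wild-type arrays, and that of the endothelial list from 4.60 to 4.73 on knockdown arrays and from 4.56 to 4.62 on wild-type arrays. Their part in the PLAU difference was not tested.

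PLAT, the activator best known for dissolving clots and also secreted in brain, gave 4.88, 4.91 and 5.11 on knockdown replicates 1, 2 and 3, against 5.03, 5.08 and 4.96 on wild-type replicates 1, 2 and 3. The groups overlapped, with knockdown replicate 3 the brightest of the 6 arrays and knockdown replicates 1 and 2 the dimmest. The log2 difference was -0.06 ± 0.10 (SE, limma adjusted p = 0.949), and the exact permutation test (two-sided) gave p = 0.6. The PLAT signal was 96.1% of the wild-type signal, and the 95% confidence interval of 81.8% to 113% holds both a modest decrease and a modest increase.

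**Figure D1:**
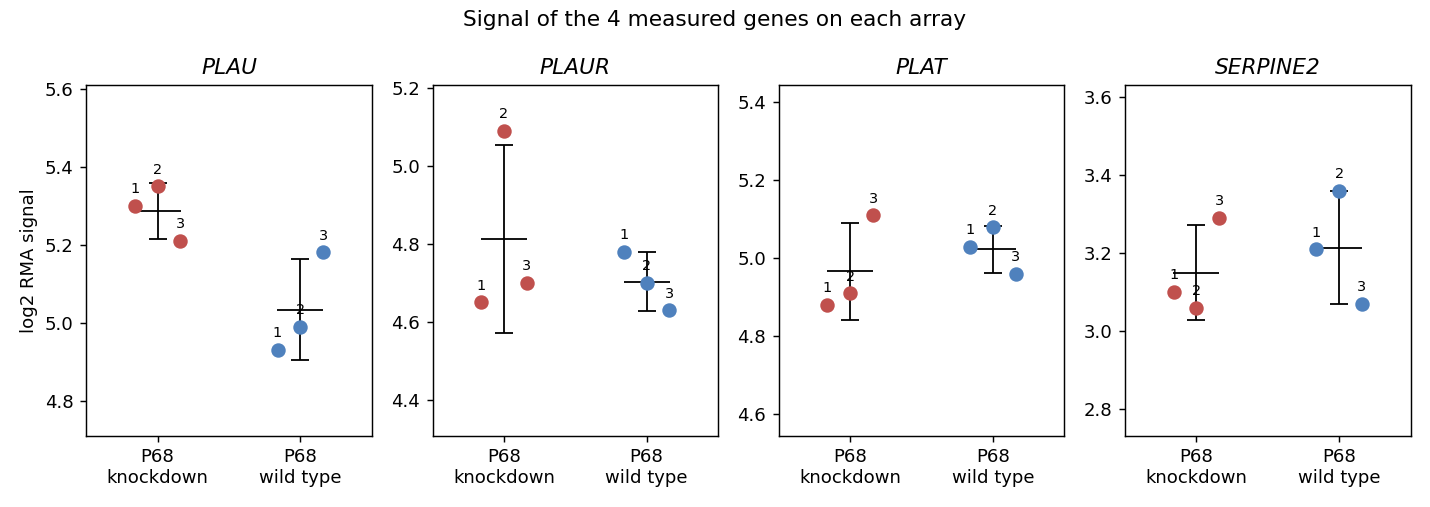
Log2 RMA signal (vertical axis) of PLAU, PLAUR, PLAT and SERPINE2 in P68 knockdown (red, left) and P68 wild-type arrays (blue, right), with replicate numbers beside the points, and bars for the mean ± SD (n = 3 each). PLAU is the member whose groups stand apart, and the high knockdown point of PLAUR is replicate 2 at 5.09; each panel has its own range of 0.9 log2 units.

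The receptor was compared next, since urokinase is held at the cell surface by it. PLAUR gave 4.65, 5.09 and 4.70 on knockdown replicates 1, 2 and 3, against 4.78, 4.70 and 4.63 on wild-type replicates 1, 2 and 3. Knockdown replicate 2 was the brightest of the 6 arrays, and the other two knockdown arrays lay within the wild-type range. The group means (± SD, n = 3 each) were 4.81 ± 0.24 for the knockdown and 4.70 ± 0.08 for the wild type. The log2 difference was 0.11 ± 0.13 (SE, limma adjusted p = 0.928), that is, a knockdown signal at 108% of wild type (95% confidence interval 88.5% to 132%). Without knockdown replicate 2 the difference was -0.03, so its direction rests on that array. The exact permutation test (two-sided) gave p = 0.7.

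Of the serpins, SERPINE2 was measured. SERPINE2 gave 3.10, 3.06 and 3.29 on knockdown replicates 1, 2 and 3, against 3.21, 3.36 and 3.07 on wild-type replicates 1, 2 and 3. The groups overlapped over nearly their whole range, and the lowest value was on a knockdown array while the highest was on a wild-type array. The log2 difference was -0.06 ± 0.11 (SE, limma adjusted p = 0.948), that is, a knockdown signal at 95.7% of wild type (95% confidence interval 80.2% to 114%). The exact permutation test (two-sided) gave p = 0.6. Without wild-type replicate 2, the brightest array for this gene, the difference was 0.01. The mean signal of SERPINE2 placed it in the dimmest 40% of genes, and detection calls were not used here, so its signal cannot be told from background.

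**Figure D2:**
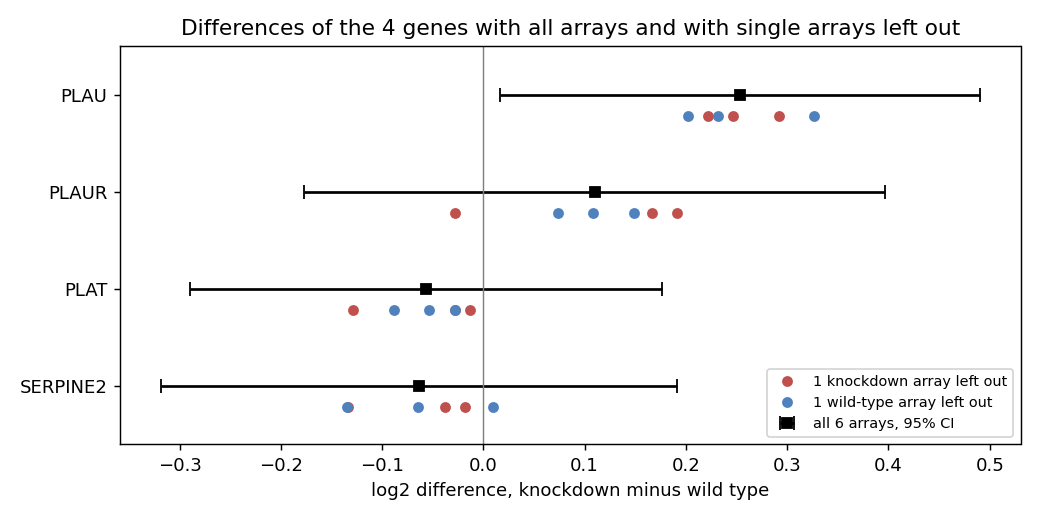
Log2 difference of knockdown minus wild type (horizontal axis) for the 4 genes, with all 6 arrays (black squares, 95% confidence interval from limma) and with 1 knockdown array (red) or 1 wild-type array (blue) left out. PLAU, whose groups do not overlap and whose sign could thus not turn, stays between 0.20 and 0.33 with any array left out. PLAUR turns to -0.03 without knockdown replicate 2 and SERPINE2 to 0.01 without wild-type replicate 2.

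The members also differed in how much they varied between arrays of a group. The pooled SD within groups was 0.11 for PLAU, 0.10 for PLAT, 0.13 for SERPINE2 and 0.18 for PLAUR, against a median of 0.14 over all genes. PLAUR varied more than 69.6% of genes and PLAT more than 23.6%. The spread of PLAUR lay in the knockdown group, where the SD was 0.24, against 0.08 in the wild type.

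The array profiles of the members were compared by the root mean square difference over the 6 arrays, in log2 units, after each gene was centred on its own mean. PLAT and SERPINE2 had the closest profiles of the 6 pairs of members, at 0.053. Both were high on knockdown replicate 3 and wild-type replicate 2 and low on knockdown replicates 1 and 2. PLAU and its receptor PLAUR lay 0.179 apart. PLAU and SERPINE2, a protease and its inhibitor, lay farthest apart at 0.243.

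Among 9208 other genes with a mean signal at or above the median gene, those most like PLAU were TWIST2, a transcription factor of the mesenchyme, at 0.036, GALR3, a galanin receptor, at 0.037, and ADCY1, an adenylate cyclase, at 0.043. The median over those genes was 0.196. TWIST2 gave 6.37, 6.37 and 6.21 on the knockdown arrays, against 6.00, 6.03 and 6.15 on the wild-type arrays, a profile close to that of PLAU because it was chosen for that. PLAUR was matched most closely by LINC02908, a long non-coding RNA gene, at 0.022, C1QC, a chain of complement C1q, at 0.023, and PRR23B at 0.024. All 3 were brightest on knockdown replicate 2, C1QC for example at 5.45 there, against 5.03 and 5.13 on knockdown replicates 1 and 3 and 5.03 to 5.15 in the wild type. For PLAT the closest were KLHL11 at 0.022, CHCHD1, a small mitochondrial protein, at 0.024, and the chemokine gene CXCL17 at 0.032. For SERPINE2, set against 9209 genes, they were ADRA2A, an adrenergic receptor, at 0.031, the ubiquitin ligase gene MGRN1 at 0.031 and KLC4, a kinesin light chain, at 0.034. These likenesses are a description over 6 arrays, with no test.

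**Figure D3:**
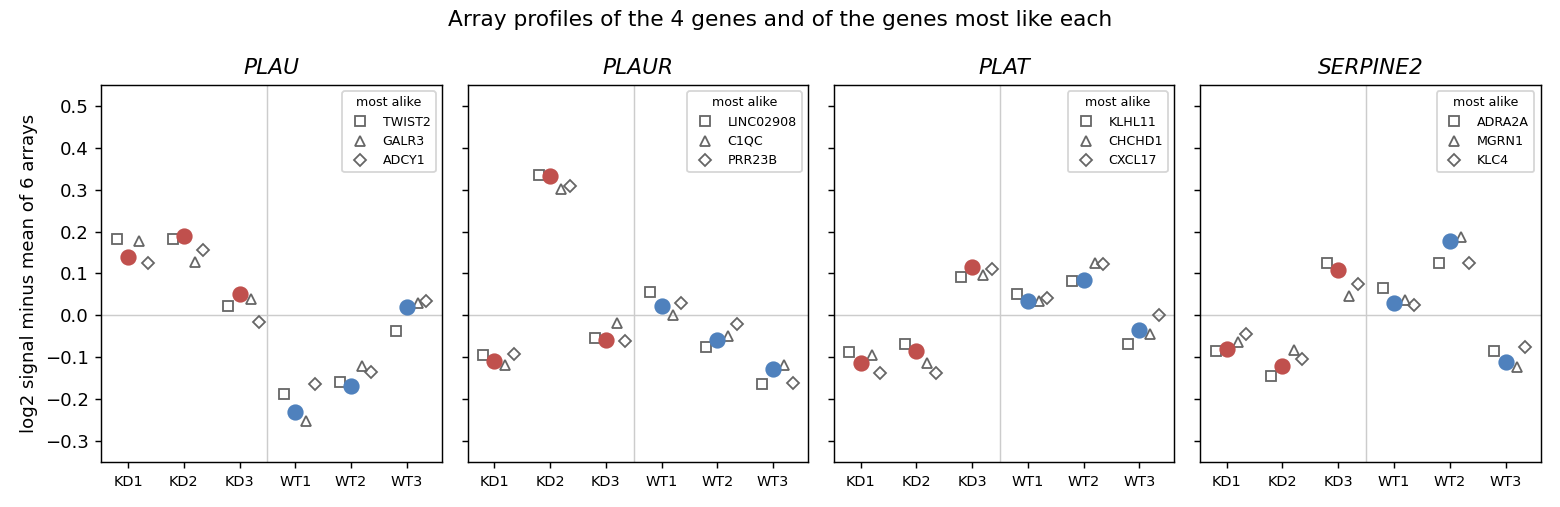
Log2 signal minus each gene's mean over the 6 arrays (vertical axis) on knockdown arrays KD1 to KD3 (left) and wild-type arrays WT1 to WT3 (right). Filled points are the named member (red in the knockdown, blue in the wild type) and open symbols are the 3 genes with the smallest root mean square difference from it; PLAUR and its matches peak on KD2, and PLAT and SERPINE2 share the order of their arrays in large part.

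Other genes of the plasminogen system were taken from 4 lists with 77 genes, of which 71 were measured. None passed the threshold in either direction (limma, adjusted p under 0.05), and 3 had an unadjusted p under 0.05, beside 5.09% of all genes. Of these 2 were higher in the knockdown, beside 3.02% of all genes, and 1 was lower, beside 2.06%. Of the 71 genes, 40 had differences above 0, 29 below and 2 at 0, with a median of 0.03 on the log2 scale. Over all genes tested 9662 of 18417 lay above 0, with a median of 0.01. Groups did not overlap for 9 of the 71, or 12.7%, beside 10.1% of all genes. The knockdown was the higher group for 6 of them, beside 5.98% of all genes, and the lower for 3, beside 4.15%.

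Genes that bind plasminogen or help to activate it at the cell surface lay mostly above 0, at 11 of 13 with 1 below. Their median was 0.07, and 52.5% of all genes lay above 0. Without the dimmest 40% of genes 7 of the 13 were left, and 6 of these lay above 0. The others are too dim to be told from background here. With array replicates left out in turn, 8 to 12 of the 13 lay above 0, the lowest count being without knockdown replicate 1. VTN, which encodes the matrix protein vitronectin that binds uPAR, had the largest difference of all 71. VTN gave 5.30, 5.40 and 5.08 on the knockdown arrays, against 4.78, 4.98 and 4.89 on the wild-type arrays, and its groups did not overlap. The log2 difference was 0.38 ± 0.12 (SE, limma adjusted p = 0.902). F11, the zymogen of clotting factor XI, followed at 0.29 ± 0.13 (SE) with groups that did not overlap, and THBS1, the matrix protein thrombospondin 1, at 0.18 ± 0.14 (SE) with groups that did. F11, too, had a mean signal within the dimmest 40% of genes. F11 gave 0.17 with knockdown replicate 1 left out. THBS1 gave 0.09 with knockdown replicate 3 left out and 0.04 with wild-type replicate 1 left out. Of the neuronal markers described with PLAU, 3 lay above 0 and 2 below, and of the endothelial markers 4 lay above and 1 below. STMN2, SYT1 and CLDN5 were those with groups that did not overlap, and STMN2 and SYT1 lay within the dimmest 40% of genes. The part of these markers here was not tested. PLG, which encodes plasminogen itself, was the gene below 0, at -0.05, and was chosen for naming after its value was seen. The mean signal of PLG also lay within the dimmest 40% of genes.

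Partners of uPAR and the receptors that clear the protease and inhibitor complexes had 9 of 23 genes above 0 and 14 below, with a median of -0.03. ITGA3, an integrin subunit that associates with uPAR, gave 5.38, 6.14 and 6.03 on the knockdown arrays, against 5.82, 6.36 and 6.16 on the wild-type arrays. Its groups overlapped, and knockdown replicate 1 was the dimmest array. The log2 difference was -0.26 ± 0.20 (SE, limma adjusted p = 0.912). It was -0.03 with knockdown replicate 1 left out and -0.14 with wild-type replicate 2 left out, and -0.41 with either knockdown replicate 2 or wild-type replicate 1 left out. VLDLR, a receptor that takes up urokinase bound to inhibitors, gave -0.22 ± 0.13 (SE), and FPR2, a receptor that responds to cleaved uPAR, gave 0.21 ± 0.12 (SE), with a mean signal within the dimmest 40% of genes. Without knockdown replicate 2, VLDLR gave -0.08 and FPR2 gave 0.10.

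Among 19 other serpins and serine protease inhibitors, 11 lay above 0 and 8 below, with a median of 0.06. Groups did not overlap for 5 of the 19, or 26.3%, beside 10.1% of all genes, with the knockdown higher for 4 (5.98% of all genes) and lower for 1 (4.15%). SERPINB1, an intracellular inhibitor of neutrophil proteases, was the gene of this list with the largest difference. It gave 2.87, 2.67 and 2.72 on the knockdown arrays, against 3.07, 2.88 and 3.08 on the wild-type arrays, a log2 difference of -0.26 ± 0.11 (SE, limma adjusted p = 0.902). Its groups stood apart by 0.01 at their closest. SERPING1, the C1 inhibitor, and SERPINA1, alpha-1-antitrypsin, each had knockdown arrays above all wild-type arrays, at 0.23 ± 0.12 and 0.22 ± 0.11 (log2 difference ± SE). SERPING1 gave 0.12 without knockdown replicate 3. SERPINB1, SERPING1, SERPINA1 and the other genes of this list whose groups did not overlap all lay within the dimmest 40% of genes. The groups of these 5 genes stood apart by 0.01 to 0.03 at their closest, so the share of 26.3% rests on dim genes.

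Substrates and other activating proteases had 9 of 16 genes above 0 and 6 below, with a median of 0.03. MST1, which encodes macrophage-stimulating protein, gave 4.19, 4.79 and 3.75 on the knockdown arrays, against 3.86, 4.17 and 3.84 on the wild-type arrays. MST1 lay within the dimmest 40% of genes, its knockdown values reached from below to above all wild-type values, and the log2 difference was 0.29 ± 0.22 (SE, limma adjusted p = 0.912). Without knockdown replicate 2 it was 0.01, and without knockdown replicate 3 it was 0.53. FN1, which encodes the plasmin substrate fibronectin, had its 3 knockdown arrays below all wild-type arrays, with means (± SD, n = 3 each) of 4.64 ± 0.11 for the knockdown and 4.85 ± 0.08 for the wild type, and a log2 difference of -0.21 ± 0.10 (SE, limma adjusted p = 0.902). HGFAC, a protease that activates hepatocyte growth factor, gave 0.17 ± 0.14 (log2 difference ± SE). It was 0.04 with knockdown replicate 2 left out, 0.11 with wild-type replicate 3 left out and 0.29 with knockdown replicate 1 left out.

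**Figure D4:**
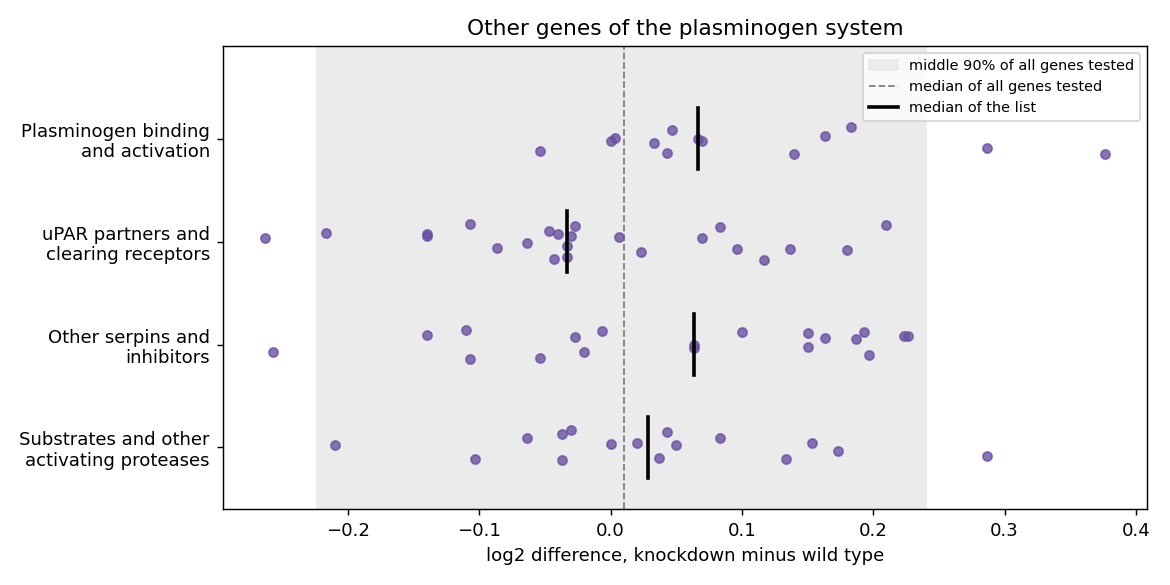
Log2 difference of knockdown minus wild type (horizontal axis) for 71 genes in 4 lists (points, spread vertically for visibility), with the median of each list (black line), the median of all genes tested (dashed line) and the middle 90% of all genes tested (grey band, -0.22 to 0.24). The list medians run from -0.03 to 0.07, and 5 genes lie outside the band.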

How the data were processed

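The deposited table holds log2 signals of 29096 probe sets on 6 Affymetrix arrays, made by the authors with RMA, per the submitters' processing notes. The RMA software and version, any filter and the genome build were not given in the sources used here. RMA equalises the arrays and would thus hide a shift common to most genes. By the platform annotation 19460 probe sets had 1 gene symbol, 1754 had several and 7882 had none, and 18417 genes were kept, each by its probe set of highest mean.

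Knockdown and wild type were compared over all genes with limma 3.58.1 in R 4.3.3 (lmFit and eBayes, two-sided, group as the only term), with Benjamini-Hochberg adjustment at 0.05. On data simulated for this comparison with 18417 genes, 200 of them changed in each of 20 sets, 99.8% of 2-fold changes were recovered and 6.80% of calls were false. A 2-fold change is larger than the differences of DDX5 (-0.49), VTN (0.38) and PLAU (0.25). The recovery of 2-fold changes thus does not say whether changes of their size would be called. Smaller changes were simulated as well, and their recovery is not given here. Precision is limited by the number of arrays (median SE 0.12). No 2 arrays were copies. Named are the members, DDX5, the 3 genes of each list with the largest absolute difference, and the 3 genes most like each member. PLG and the cell type marker genes are named outside this rule. The members, lists and tests were chosen with earlier results of these data known. The 4 promoter motifs were chosen after the expression values were seen. The alternatives were other scalings, a filter on dim genes, other probe set rules, other variance estimates, a replicate block, array weights, leaving out each array and a threshold of 0.01.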

Additional observations from a re-analysis of the deposited data

How the results depend on the processing

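No gene passed the threshold under any of the 15 alternatives or at an adjusted p under 0.01, by limma, while 937 genes had an unadjusted p under 0.05 with all arrays. PLAU kept its direction in all 15 alternatives, with limma adjusted p-values of 0.675 to 0.998. Its groups did not overlap, so leaving out 1 array (0.20 to 0.33) could not turn its sign. The filter on dim genes, the probe set rules, the other variance estimate and the block leave its difference at 0.25 by construction. PLAU gave 0.20 with array weights and 0.23 after cyclic loess. Its unadjusted limma p was 0.0793 with array weights, 0.0512 after a second quantile normalisation and 0.0376 without the dimmest 40% of genes. PLAT also kept its direction, from -0.13 to -0.01 with 1 array left out and at -0.003 with array weights. Reversed signs were found for PLAUR without knockdown replicate 2, at -0.028 in a range up to 0.19, and for SERPINE2 without wild-type replicate 2, at 0.01 in a range down to -0.135, and the cause was not tested. SERPINE2 fell under the filter on the dimmest 40% of genes and has no value there, and SERPINB2 was run under none. The median of the plasminogen system genes stayed between 0.01 and 0.04. It was lowest without the dimmest 40% of genes, where fewer than the 71 genes were left. Without the dimmest 40% of genes, the lists, in their order in the report, had 6 of 7, 6 of 18, 3 of 5 and 4 of 6 genes above 0. These counts were added after the data were seen, as were the values of the 12 named list genes with single arrays left out. None of the 12 turned sign. They were picked for the largest differences in these same data, so this is no test of stability. Same-numbered arrays did not deviate together throughout, with r = 0.27, -0.03 and 0.13 for numbers 1, 2 and 3, and not every array correlated best with its own number. With a replicate block 0 genes passed the threshold, and PLAU gave 0.25 ± 0.11 (SE, limma adjusted p = 0.791). Without detection calls, dim genes cannot be told from background.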
